A study of Mus musculus with 24 samples.

Results

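S100 genes encode small calcium-binding proteins, and 8 of them are described here in the mouse mammary carcinoma line EO771: S100a1, S100a3, S100a4, S100a6, S100a10, S100a11, S100a13 and S100a16. They were chosen by symbol from the 13915 genes that the count tables of both batches list, and all 8 had a row in each. This choice was made with earlier results of these data known. S100a7a, S100a8 and S100a14 also had a row in both and are described separately below. The line was profiled as 4 derivatives that carry a retroviral pLNCX2 vector with the tdTomato reporter. X2 is the vector control, CCR7 overexpresses mouse Ccr7 and was kept as the sort negative for podoplanin (PDPN), CCR7-PDPN is the Ccr7 population sorted for high PDPN, and X2-PDPN is the vector control sorted for high PDPN. All were grown in RPMI-1640 with fetal bovine serum, and none was grown from a single clone. Comparisons within a batch share libraries, those of X2-PDPN included, so they are not independent and their values are given side by side. CCR7 was sequenced in batch 1 alone and X2-PDPN in batch 2 alone, while both batches had X2 and CCR7-PDPN, and each derivative had 4 technical replicate libraries in its batch. Every p-value below therefore measures only the spread between technical libraries of 1 population, and a change of RNA per cell cannot be told apart from a change in the share of cells that express a gene.

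An S100 protein is a dimer of short chains, each with a pair of EF-hand motifs that bind calcium. Calcium opens a hydrophobic face through which the dimer binds other proteins, among them annexins, non-muscle myosin and tumour suppressors, so that the family links calcium signals to the cytoskeleton, the membrane and repair. S100A10 is the exception, since its calcium-binding loops are inactive and it is held in its binding state. Some members also leave the cell and act on receptors such as RAGE. S100A4 is best known in mammary cancer, where it is linked with motility and metastasis, and S100A8 with S100A9 forms the myeloid protein calprotectin.

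All 8 genes lie on chromosome 3 of GRCm38, within 3053610 bases, and all are protein coding. S100a1 (ENSMUSG00000044080, 90511034 to 90514392) is the only one on the minus strand. S100a13 (ENSMUSG00000042312, 90514435 to 90524581) starts next to it in the opposite direction. S100a16 (ENSMUSG00000074457, 90537254 to 90543151), S100a3 (ENSMUSG00000001021, 90584659 to 90602702), S100a4 (ENSMUSG00000001020, 90603771 to 90606045) and S100a6 (ENSMUSG00000001025, 90612882 to 90624181) follow. S100a11 (ENSMUSG00000027907, 93520488 to 93526287) and S100a10 (ENSMUSG00000041959, 93555080 to 93564643) sit together at the far end. The exons of S100a4 share 302 of 584 bases with those of Gm42674 on the same strand, and S100a3 shares 144 of 2670 with Gm42674 and 153 with S100a2. Reads in shared exons may not have been assigned, so the counts of S100a4 and S100a3 are uncertain in level. Gm42674 itself held 1 to 5 reads per library in batch 1 and S100a2 held 0 to 4.

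Promoter windows from RefSeq (GRCm38.p6), of 250 bases before to 50 after a start, were available for 7 members. They are shown for the head-to-head pair, whose windows overlap by 204 bases, and for 3 genes that behaved differently between the derivatives. Capitals mark the searched motifs on either strand, which are the TATA box (TATAAA), the GC box (GGGCGG) and the AP-1 site (TGANTCA), and no 2 matches overlap.
S100a1 and S100a13, shared, chr3:90514281-90514484, plus strand: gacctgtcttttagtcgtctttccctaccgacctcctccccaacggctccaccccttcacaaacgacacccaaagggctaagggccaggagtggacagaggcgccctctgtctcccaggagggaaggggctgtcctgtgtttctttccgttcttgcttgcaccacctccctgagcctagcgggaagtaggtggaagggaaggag
S100a4, chr3:90603520-90603819, plus strand: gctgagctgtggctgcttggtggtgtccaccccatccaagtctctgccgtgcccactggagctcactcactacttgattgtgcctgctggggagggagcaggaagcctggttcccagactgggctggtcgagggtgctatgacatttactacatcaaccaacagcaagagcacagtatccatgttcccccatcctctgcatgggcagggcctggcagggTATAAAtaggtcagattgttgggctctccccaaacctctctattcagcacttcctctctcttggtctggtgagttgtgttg
S100a6, chr3:90612644-90612943, plus strand: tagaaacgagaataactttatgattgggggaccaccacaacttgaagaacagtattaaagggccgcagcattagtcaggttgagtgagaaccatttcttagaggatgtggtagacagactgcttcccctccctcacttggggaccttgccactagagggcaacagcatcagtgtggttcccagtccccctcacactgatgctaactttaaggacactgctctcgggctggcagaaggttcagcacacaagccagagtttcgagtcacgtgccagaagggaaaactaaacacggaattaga
S100a11, chr3:93520246-93520545, plus strand: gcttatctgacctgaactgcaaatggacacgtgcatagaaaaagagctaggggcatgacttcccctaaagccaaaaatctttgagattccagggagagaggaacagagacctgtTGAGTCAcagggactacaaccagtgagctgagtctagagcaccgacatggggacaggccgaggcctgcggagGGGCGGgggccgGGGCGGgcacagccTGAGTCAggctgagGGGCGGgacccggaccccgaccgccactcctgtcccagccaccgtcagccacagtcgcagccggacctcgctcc

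In the shared window of S100a1 and S100a13 none of the 3 motifs was found. The S100a4 window holds 1 TATA box, a match that 13.6% of 32544 distinct mouse promoter windows have. The S100a11 window holds 3 GC boxes and 2 AP-1 sites. At least 1 GC box was found in 35.9% of windows and at least 1 AP-1 site in 7.79%. The windows also differ in CpG content, with 15 CpG dinucleotides at S100a11, 11 at S100a1, 14 at S100a13, 6 at S100a6 and 2 at S100a4, against a median of 7. The S100a6 window holds none of the 3 motifs. These matches are letters in a window and were not measured as binding sites.

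Library totals ran from 22275468 to 33395418 counts in batch 1 and from 22788542 to 35721027 in batch 2. Ccr7 had 4 to 29 reads in the 12 libraries without the Ccr7 vector and at least 61655 in each of the others. Pdpn had 0 to 8 reads per X2 library, 7 to 20 per CCR7 library and 576 to 924 in the 12 libraries sorted for it. The carcinoma label rests on few epithelial transcripts, since Krt8 had 5071 to 10247 reads per library while Epcam, Krt18, Krt5, Krt14, Cdh1 and Cldn7 had at most 9 in batch 1 and no row in batch 2. Of the fibroblast markers, Pdgfra and Pdgfrb had over 1000 reads in every library and Dcn, Lum, Fap and Thy1 had at most 3 in batch 1. Of the 8 myeloid markers, Ptprc, Itgam, Csf1r and Adgre1 had at most 8 reads in batch 1 and S100a9 had 0, and these 5 had no row in batch 2, where the sum covers Cd68, Lyz2 and S100a8. The summed level, carried by Cd68 and Lyz2, differed between derivatives. In CPM (counts scaled to a common library total), batch 1 X2 libraries had 52.9 to 61.9, CCR7 libraries 16.2 to 21.5 and CCR7-PDPN libraries 9.34 to 11.7. The batch 2 X2 libraries had 53.6 to 57.7, X2-PDPN libraries 27.5 to 32.8 and CCR7-PDPN libraries 8.16 to 10.8. Lymphoid markers summed to at most 0.293 CPM in batch 1 and had no row in batch 2, and endothelial markers summed to at most 1.50. One library stood apart from its group over all genes: a comparison of counts between 2 libraries of a group gave a chi-square, divided by its degrees of freedom, between 12.9 and 21.6 for the 3 pairs with CCR7 replicate 1 and between 2.02 and 8.17 for the 33 other pairs. The part of these cells or transcripts in the results below was not tested.

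S100a6, S100a11 and S100a10 made up nearly all S100 message. In TPM (transcripts scaled to a common total after correction for exonic length), S100a6 averaged 2653 ± 83.4 (SD, n = 4) in the X2 libraries of batch 1, S100a11 1392 ± 75.1 and S100a10 1122 ± 61.3, which placed them 24th, 75th and 106th of 13915 genes. S100a1 followed with 142 ± 4.46 TPM, S100a13 with 77.2 ± 4.50, S100a4 with 35.9 ± 1.66 and S100a3 with 3.23 ± 0.707. S100a16 had 0.698 ± 0.196 TPM from 5 to 13 reads and was close to the limit of the depth.
The order hardly moved between derivatives. Of 42 pairs of neighbours in the order, counted over 6 groups of libraries, 3 pairs had libraries that overlapped and so did not differ beyond their spread. These were S100a10 with S100a11 in CCR7 (1001 ± 82.2 against 1000.3 ± 107 TPM), S100a13 with S100a4 in CCR7, and S100a4 with S100a1 in X2-PDPN. By mean level S100a4 ranked 6th for X2 and CCR7, 5th for CCR7-PDPN and 4th for X2-PDPN, S100a1 and S100a13 moving down as it passed them, and S100a10 stood above S100a11 in CCR7 alone. Of these changes of place, that of S100a4 past S100a13 in CCR7-PDPN and X2-PDPN was larger than the spread of the libraries.
Together the 8 genes summed to 5425 ± 222 TPM for X2 of batch 1, 3942 ± 291 for CCR7 and 4458 ± 133 for CCR7-PDPN. For batch 2 the sums were 5352 ± 191 TPM for X2, 6339 ± 149 for X2-PDPN and 4402 ± 109 for CCR7-PDPN. S100a6 supplied between 36.1% and 52.0% of this sum in a library, the smallest share in CCR7-PDPN of batch 1 and the largest in X2 of batch 2. The sum was thus highest in X2-PDPN and lowest in CCR7, although those belong to different batches.

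**Figure D1:**
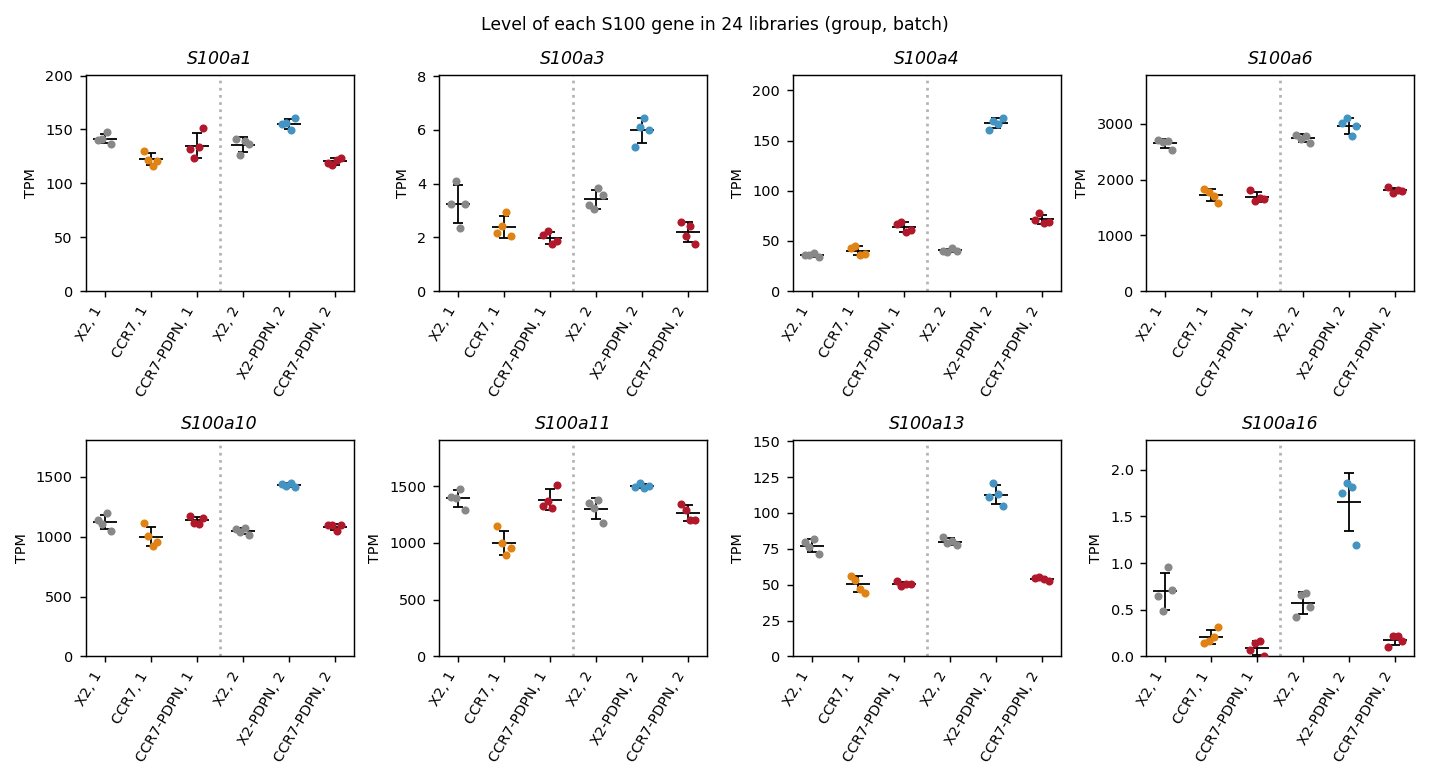
Level of each of the 8 S100 genes in TPM (vertical axis, from 0) in the 24 libraries, grouped by derivative and batch. Points are libraries, horizontal bars and error bars are means and SD of 4 technical libraries, and the dotted line divides the batches. S100a4 stands at 161 to 173 TPM in X2-PDPN and below 79 TPM in every other library.

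This comparison asks what differed between Ccr7-expressing cells without PDPN and the vector control. Of the 7 members tested in batch 1, 5 fell (S100a1, S100a6, S100a10, S100a11 and S100a13), none rose, and 2 (S100a3 and S100a4) did not pass the test. Among all 13261 genes tested, 49.3% were called, so a count of 5 in 7 stands near the background. With a fold change above 2 as well (absolute log2 above 1), 6.48% of genes and none of the members were called by edgeR. The members' median log2 fold change was -0.40, beside 0.0033 over all genes.
S100a6, the most abundant member and a binder of CacyBP (calcyclin-binding protein) and annexins, showed the clearest fall. Its 4 X2 libraries stood at 2707, 2675, 2699 and 2529 TPM and its 4 CCR7 libraries at 1833, 1782, 1708 and 1584. The groups lay far apart, and the change was -0.62 on the log2 scale (SE 0.0441, edgeR adjusted p = 2.23e-09). S100a13, which carries FGF1 out of the cell by a non-classical route, had 79.6, 76.1, 81.8 and 71.4 TPM in X2 against 56.2, 53.4, 47.2 and 43.9 in CCR7. It fell by 0.62 on the log2 scale (SE 0.0745, edgeR adjusted p = 4.96e-07), again without overlap.
S100a11, a partner of annexin A1 in membrane repair, had 1404, 1398, 1473 and 1291 TPM in X2 and 1147, 1002, 896 and 955 in CCR7. It fell by 0.48 on the log2 scale (SE 0.0777, edgeR adjusted p = 0.000293). S100a1, better known as a regulator of calcium cycling in muscle, was lower by 1.16-fold without overlap (adjusted p = 0.00506 in edgeR). S100a10, the annexin A2 partner, was lower by 1.12-fold with overlapping libraries (adjusted p = 0.0164), and its call was lost without X2 replicate 3 (adjusted p = 0.0527) or CCR7 replicate 4 (adjusted p = 0.0541). CCR7 replicate 1, which stood apart over all genes, was the highest CCR7 library for all 5 genes that fell, and without it all 5 still passed, with log2 changes of -0.25 for S100a1, -0.65 for S100a6, -0.23 for S100a10, -0.55 for S100a11 and -0.68 for S100a13. S100a4 had 33.7 to 37.6 TPM in X2 and 36.0 to 44.9 in CCR7, with an adjusted p of 0.152. S100a3 had 53 to 70 reads in X2 and 32 to 70 in CCR7, with an adjusted p of 0.0535 that passed the threshold without X2 replicate 3 (adjusted p = 0.0117) or CCR7 replicate 3 (adjusted p = 0.0207).
S100a16 was not tested in batch 1 because of its few reads, which were 8, 5, 13 and 9 in X2 and 2, 2, 3 and 3 in CCR7. The summed reads, scaled by library totals, gave a ratio of X2 to CCR7 of 3.63 with an exact Clopper-Pearson 95% interval of 1.76 to 8.22, which covers counting error only.

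Here both sides carry Ccr7 and differ in PDPN. Of the 7 members tested, 4 rose (S100a1, S100a4, S100a10 and S100a11), none fell, and 3 (S100a3, S100a6 and S100a13) did not pass. Over all genes 41.6% were called, and 3.27% with the fold threshold, which no member passed. The members' median was 0.17 on the log2 scale, beside -0.0033 over all genes.
S100a4 had the largest rise. It stood at 42.8, 44.9, 36.0 and 36.8 TPM in CCR7 and at 66.8, 68.9, 58.8 and 61.2 in CCR7-PDPN, a rise of 1.62-fold (log2 0.70, SE 0.0835, edgeR adjusted p = 1.19e-06). S100a11 stood at 1324, 1369.6, 1311 and 1514 TPM in CCR7-PDPN, above all 4 CCR7 libraries, and rose by 1.40-fold (log2 0.49, SE 0.0776, edgeR adjusted p = 0.000382). Its level was thereby close to that of X2 in the same batch (1392 ± 75.1 TPM).
Without CCR7 replicate 1 the rise was 0.73 for S100a4 and 0.57 for S100a11 on the log2 scale. S100a10 rose by 1.16-fold with overlapping libraries (925 to 1113 TPM in CCR7, 1109 to 1169 in CCR7-PDPN, edgeR adjusted p = 0.00529). S100a1 rose by 1.13-fold (edgeR adjusted p = 0.0261), but its libraries overlapped and the call was lost without CCR7-PDPN replicate 4 (adjusted p = 0.127), without CCR7 replicate 3 (adjusted p = 0.0863) or 4 (adjusted p = 0.0579, edgeR), and when only these groups were fitted (adjusted p = 0.0587). S100a6 had 1613 to 1814 TPM in CCR7-PDPN beside 1584 to 1833 in CCR7, and S100a13 had 49.0 to 52.6 beside 43.9 to 56.2, so both stayed at the lower level of the Ccr7 cells. Their adjusted p-values in edgeR were 0.945 and 0.778. S100a16 had 1, 2, 2 and 0 reads in CCR7-PDPN.

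This contrast sets vector control cells sorted for PDPN against the vector control. All 8 members passed the test and all 8 rose, while 56.8% of all genes were called in either direction. With the fold threshold, S100a4 and S100a16 were called, beside 5.05% of genes. S100a16 passed the filter on low counts in batch 2 only through X2-PDPN, the group where it was highest. Its calls and its place in these counts were thus favoured by the filter. The members' median was 0.47 on the log2 scale, beside 0.0012 over all genes. In 7 of the 8 the libraries of the groups did not overlap, S100a6 being the exception, and the same held for 50.6% of all genes.
S100a4, the metastasis-linked member that binds non-muscle myosin IIA, stood at 39.8, 39.4, 43.1 and 39.7 TPM in X2 and at 161, 169, 167 and 173 in X2-PDPN. This 4.11-fold rise (log2 2.04, SE 0.0629, edgeR adjusted p = 7.87e-29) moved it from 4956th to 1104th of 13915 genes. The log2 change stayed between 2.02 and 2.06 whichever single library was omitted. Col1a1, a listed fibroblast marker, also rose (log2 1.37, SE 0.12, edgeR adjusted p = 5.14e-13), at 39 to 70 reads in the other libraries of batch 2 and 132 to 194 in X2-PDPN. Of the 3 fibroblast markers tested, Pdgfra also rose (log2 0.17, SE 0.0281) and Pdgfrb fell by 0.29 on the log2 scale (SE 0.0383), while Dcn, Lum, Fap and Thy1 had no row in the batch 2 table. Their summed level was 229 to 237 CPM in X2 and 235 to 252 in X2-PDPN, and their part in the result was not tested.
S100a16 had 5, 8, 9 and 7 reads in X2 and 23, 29, 23 and 14 in X2-PDPN. Its log2 change was 1.51 (SE 0.308, edgeR adjusted p = 4.63e-05), and the ratio of summed reads, scaled by library totals, was 2.87 (exact 95% interval 1.87 to 4.53, counting error only). S100a3, known from the hair cuticle, had 3.07 to 3.82 TPM in X2 and 5.36 to 6.44 in X2-PDPN and rose by 1.74-fold (edgeR adjusted p = 3.10e-07).
The abundant members moved less. S100a10 had 1062, 1037, 1076 and 1013 TPM in X2 and 1436, 1421, 1447 and 1416 in X2-PDPN, and rose by 1.36-fold (log2 0.44, SE 0.0259, edgeR adjusted p = 4.97e-19). S100a13 had 83.1, 78.9, 80.3 and 77.6 TPM in X2 and 111, 121, 114 and 105 in X2-PDPN, and rose by 1.41-fold (log2 0.49, SE 0.0545, edgeR adjusted p = 1.68e-10). Both were separated by more than the spread of their libraries.
S100a11 rose by 1.15-fold (1172 to 1374 TPM against 1487 to 1526, edgeR adjusted p = 0.00115) and S100a1 by 1.14-fold (edgeR adjusted p = 0.000705). S100a6 rose by 1.08-fold with overlapping libraries, 2650.2 to 2807 TPM in X2 and 2779 to 3109.9 in X2-PDPN (edgeR adjusted p = 0.00387). Of the 3 myeloid markers tested, S100a8 rose in this comparison (log2 1.00), Cd68 fell by 1.11 on the log2 scale, and Lyz2 had a log2 change of -0.19 that did not pass (edgeR adjusted p = 0.0585).

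**Figure D2:**
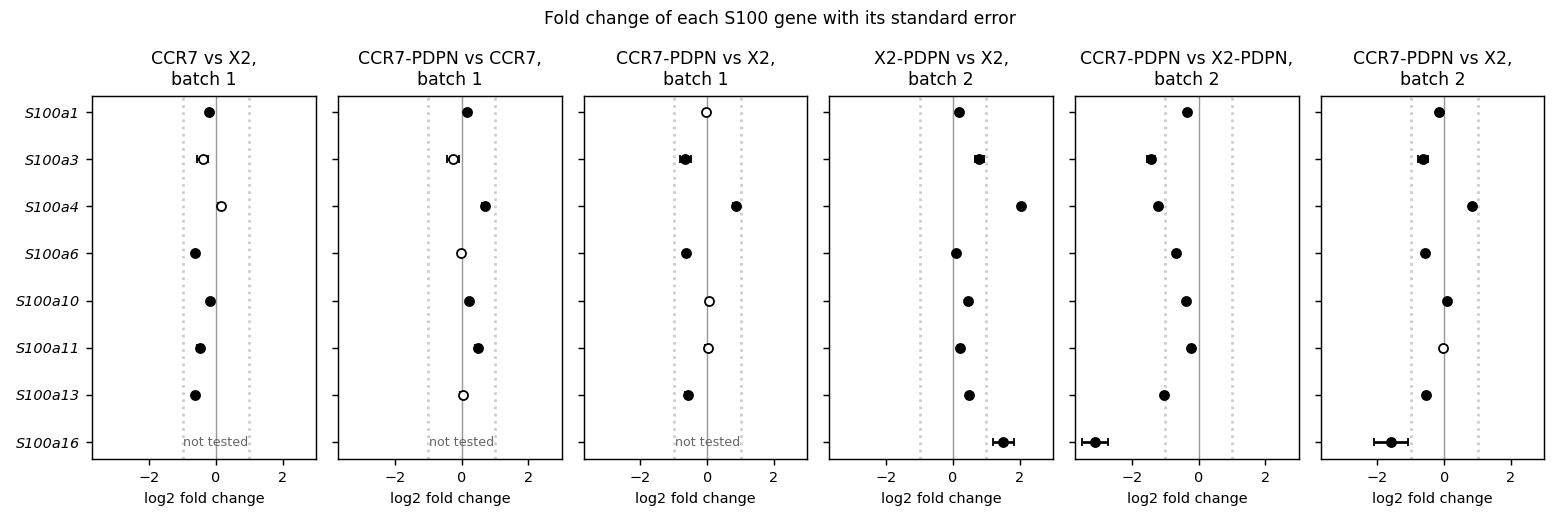
Log2 fold change of each S100 gene (horizontal axis) with its standard error in the 6 comparisons within a batch. Filled points passed an adjusted p of 0.05, open points did not, dotted lines mark a log2 change of 1 in either direction, and S100a16 was not tested in batch 1. All 8 genes lie right of 0 in X2-PDPN against X2 and all 8 lie left of 0 in CCR7-PDPN against X2-PDPN. These comparisons share the X2-PDPN libraries and are not independent.

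Both sides were sorted for PDPN, with Pdpn at 48.2 to 51.5 TPM in CCR7-PDPN and 52.6 to 53.1 in X2-PDPN. All 8 members fell and in all 8 the libraries of the groups did not overlap. The X2-PDPN libraries are those compared with X2 above, so this count and the rise of all 8 there are not independent. Of all 13314 genes, 63.2% were called in either direction and 54.3% had libraries that did not overlap. With the fold threshold 4 members were called (S100a3, S100a4, S100a13 and S100a16), beside 9.16% of genes. The members' median was -0.86, beside 0.00013 over all genes.
S100a16 fell from 89 reads summed over 4 libraries to 9. It passed the filter on low counts only through X2-PDPN, which favoured this fall and its place in the counts above. Its log2 change was -3.10 (SE 0.399, edgeR adjusted p = 5.54e-09), and the ratio of X2-PDPN to CCR7-PDPN was 9.13 with an exact 95% interval of 4.60 to 20.6 for counting error. S100a3 had 116 to 158 reads in X2-PDPN and 35 to 55 in CCR7-PDPN, and was 2.68-fold lower (log2 -1.42, SE 0.133, edgeR adjusted p = 1.16e-12).
S100a4 was at 70.9, 78.1, 67.4 and 69.4 TPM in CCR7-PDPN, against 161 to 173 in X2-PDPN, and was 2.30-fold lower (log2 -1.20, SE 0.0572, edgeR adjusted p = 1.60e-22). Of the fibroblast markers, Col1a1 fell by 1.66 and Pdgfra by 0.21 on the log2 scale in this comparison, and Pdgfrb rose by 0.20. S100a13 was at 54.5, 55.3, 54.1 and 52.9 TPM, 2.05-fold lower (log2 -1.03, SE 0.0583, edgeR adjusted p = 7.84e-20). Its head-to-head neighbour S100a1 was 1.27-fold lower, with 117 to 124 TPM against 149 to 161 (edgeR adjusted p = 3.80e-08).
S100a6 was at 1869, 1762, 1812 and 1798 TPM and was 1.61-fold lower (log2 -0.69, SE 0.0312, edgeR adjusted p = 1.55e-18). S100a10 was 1.30-fold lower (edgeR adjusted p = 7.63e-17), with 1047 to 1096 TPM. S100a11 was 1.17-fold lower (edgeR adjusted p = 0.000358), with 1201 to 1344 TPM.

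The same derivatives were compared in each batch, from separate libraries. In batch 1, S100a4 rose and S100a3, S100a6 and S100a13 fell, and 3 of 7 tested members did not pass. In batch 2, S100a4 and S100a10 rose, S100a1, S100a3, S100a6, S100a13 and S100a16 fell, and S100a11 did not pass. Of all genes, 60.9% were called in batch 1 and 64.8% in batch 2. With the fold threshold the shares were 9.45% and 9.63%, and S100a16 in batch 2 was the one member called.
S100a4 was 1.81-fold higher in batch 1 (log2 0.86, SE 0.0852, edgeR adjusted p = 1.73e-08) and 1.79-fold higher in batch 2 (log2 0.84, SE 0.072, edgeR adjusted p = 7.12e-14). S100a6 was 1.54-fold lower in batch 1 (edgeR adjusted p = 1.23e-09) and 1.49-fold lower in batch 2 (edgeR adjusted p = 9.68e-17). S100a13 was 1.50-fold and 1.45-fold lower, and S100a3 1.58-fold and 1.55-fold lower.
The libraries of S100a3, S100a4, S100a6 and S100a13 did not overlap between the derivatives in either batch, as was the case for 58.9% of all genes in batch 1 and 57.4% in batch 2. S100a11 had log2 changes of 0.01 in batch 1 and -0.03 in batch 2, with adjusted p-values of 0.907 and 0.641. S100a10 had log2 changes of 0.04 and 0.07, of which the second passed (edgeR adjusted p = 0.0191) but lost its call without X2 replicate 2 or 4 or without CCR7-PDPN replicate 1, 2 or 4 (adjusted p up to 0.0922). S100a1 had a log2 change of -0.04 in batch 1 and -0.16 in batch 2 (edgeR adjusted p = 0.00526). S100a16, with 9 reads summed in CCR7-PDPN and 29 in X2 of batch 2, had a ratio of X2 to CCR7-PDPN of 3.18 (exact 95% interval 1.46 to 7.63), and of 7.59 (2.96 to 24.8) in batch 1 from 35 and 5 reads.

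The difference of the PDPN sort was measured with Ccr7 in batch 1 and without Ccr7 in batch 2. X2 and CCR7-PDPN were sequenced in both batches, and their difference in batch 1 and batch 2 was 0.86 and 0.84 on the log2 scale for S100a4, -0.66 and -0.63 for S100a3, and -0.59 and -0.54 for S100a13. In a fit over all 24 libraries, 40.8% of 13690 genes had a difference between the contrasts, and 6 of the 8 members did.
S100a4 rose by 2.04 on the log2 scale without Ccr7 and by 0.70 with it, a difference of -1.34 (SE 0.102, edgeR adjusted p = 2.88e-13). S100a3 had 0.80 without and -0.26 with Ccr7, a difference of -1.05 (SE 0.21, edgeR adjusted p = 0.000102). S100a13 had 0.49 without and 0.03 with Ccr7, a difference of -0.46 (SE 0.091, edgeR adjusted p = 9.30e-05). All 3 genes rose without Ccr7, and with Ccr7 only S100a4 passed the test. A second form of the difference took CCR7-PDPN from batch 2 and X2 from batch 1. It was -1.36 for S100a4, -1.02 for S100a3 and -0.41 for S100a13.
S100a10 had a smaller difference of -0.23 (SE 0.0601, edgeR adjusted p = 0.0029). S100a11 differed in the opposite sense, with a log2 change of 0.20 without and 0.49 with Ccr7 (difference 0.29, SE 0.0988, edgeR adjusted p = 0.023), but this call was lost without CCR7 replicate 3 or 4, CCR7-PDPN replicate 4 or X2 replicate 3, with an adjusted p of up to 0.0571. S100a16 had a difference of -2.49 (SE 0.748, edgeR adjusted p = 0.00707), which rested on 5 reads in CCR7-PDPN of batch 1. It became -1.32 (edgeR adjusted p = 0.134) with CCR7-PDPN taken from batch 2 and X2 from batch 1. Here too S100a16 passed the filter on low counts only through X2-PDPN, which favoured a difference. S100a1 (-0.01, adjusted p = 0.905) and S100a6 (-0.11, adjusted p = 0.17) did not pass, the second passing without CCR7 replicate 4 (adjusted p = 0.0246) or X2-PDPN replicate 3 (adjusted p = 0.0348).

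**Figure D3:**
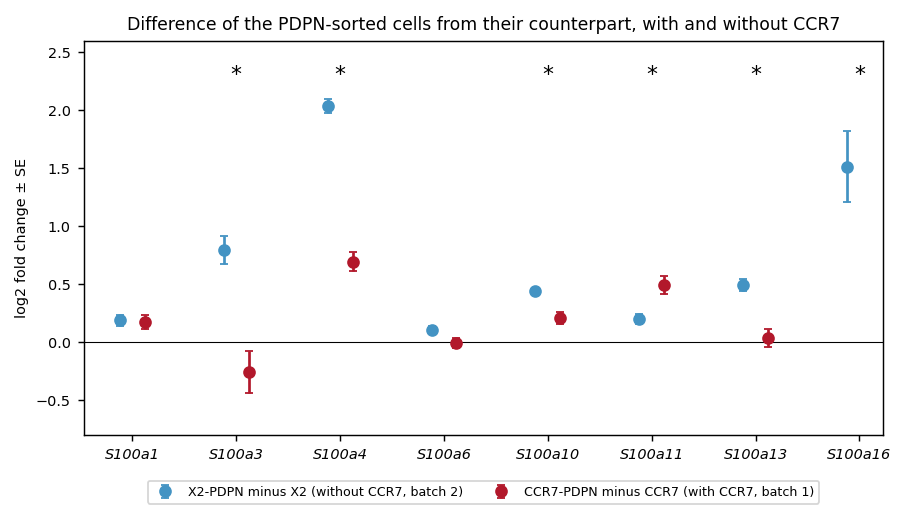
Log2 fold change with its standard error (vertical axis) of each S100 gene for X2-PDPN minus X2 in batch 2 (blue) and CCR7-PDPN minus CCR7 in batch 1 (red). An asterisk marks genes whose changes differed between the contrasts at an adjusted p of 0.05 in the fit over 24 libraries, and S100a16 has no red point since it was not tested within batch 1. The blue point lies above the red one for S100a3, S100a4, S100a10 and S100a13 and below it for S100a11, all with an asterisk. S100a1 and S100a6, which have no asterisk, also have the blue point above the red one.

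Across the 24 libraries the log2 CPM of the members rose and fell together to different degrees. Over 28 pairs, Pearson's r ran from 0.22 (S100a4 with S100a6) to 0.95 (S100a6 with S100a13), with a median of 0.61. These values are a description, since the 24 points are 6 groups of technical libraries and share depth and batch. The head-to-head pair S100a1 and S100a13 had r = 0.77, and S100a10 with S100a11, the pair at the far end of the region, also had r = 0.77.
By mean TPM, S100a6, S100a13 and S100a3 stood lower in both Ccr7 derivatives than in X2, S100a4 stood higher in each PDPN-high derivative than in X2 or CCR7, and S100a10 and S100a11 were lowest in CCR7.
The genes whose 6 group means followed S100a4 most closely, among 13030 tested in both batches, were Tef (r = 0.998), Spred1 (r = 0.997) and Chkb (r = 0.997). The widest span of group means was that of S100a16 (2.86 on the log2 CPM scale), and the closest followers were Mrpl9 (r = 0.999), Amhr2 (r = 0.997) and P3h3 (r = 0.995). With 6 points, and 0 to 29 reads of S100a16 per library, these are likenesses of shape alone, and Mrpl9 ran only from 125 to 141 TPM.

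Genes around the members on chromosome 3 were counted in the same way. Of 164 other genes annotated in the region, extended by 500 kb on either side, 24 were tested in batch 2. In X2-PDPN against X2, 12 of these rose, 1 fell and none passed the fold threshold, with a median of 0.16 on the log2 scale, beside 56.8% of all genes called. In CCR7-PDPN against X2-PDPN, 2 rose and 10 fell, beside 63.2% of all genes called, with a median of -0.10, and Gm45477 alone passed the fold threshold (log2 -1.12, SE 0.389, edgeR adjusted p = 0.0117). In batch 1, 23 were tested and 7 were called in each comparison, beside 41.6% to 60.9% of all genes, with medians between -0.02 and 0.03 on the log2 scale and none past the fold threshold.

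**Figure D4:**
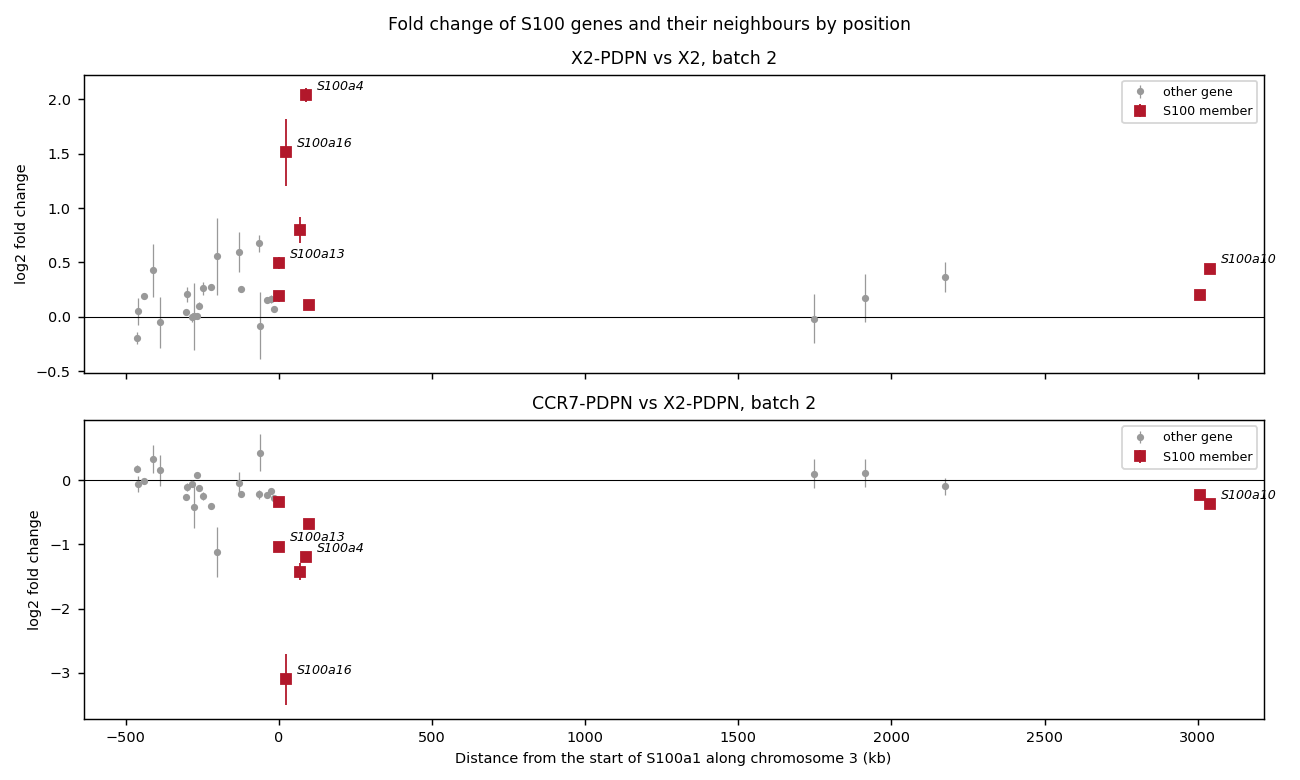
Log2 fold change with its standard error (vertical axis) against distance from the start of S100a1 in kb along chromosome 3, for the 8 S100 genes (red squares) and 24 neighbouring genes (grey). The upper panel shows X2-PDPN against X2 and the lower panel CCR7-PDPN against X2-PDPN. S100a3, S100a4 and S100a16 lie above every neighbour in the upper panel, where no neighbour passed a log2 change of 1.

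Of 12 other S100 genes listed, 9 had a row in batch 1 and 3 of these (S100a8, S100a14 and S100a7a) also in batch 2. S100a2 had 0 to 4 reads per library in batch 1, S100a5 0 to 3, S100b 0 to 2 and S100z 3 to 15. S100a9 and S100g had 0 in all 12. In a single library 0 reads allow an expected count of up to 3, and 12 empty libraries allow less. S100a7l2, S100a15 and S100p had no row. All 3 tested genes fell in CCR7 against X2 and in CCR7-PDPN against X2-PDPN, each past the fold threshold. Of all genes, 6.48% and 9.16% passed it there, in either direction. In batch 1, S100a8 had 32 to 42 reads in X2 and 4 to 11 in CCR7, and S100a14 12 to 20 and 1 to 8. Both passed the filter on low counts there only through X2, the group where each was highest. Their falls from X2 in batch 1 were thus favoured by the filter.
S100a8, a calprotectin subunit, averaged 6.97 ± 0.794 TPM in X2 of batch 1 and 1.27 ± 0.505 in CCR7 (log2 -2.45, SE 0.28, edgeR adjusted p = 2.08e-07). In batch 2 it averaged 6.65 ± 2.16 TPM in X2 and 13.3 ± 2.35 in X2-PDPN (log2 1.00, SE 0.19, edgeR adjusted p = 1.16e-05), then 2 to 4 reads per library in CCR7-PDPN. The ratio of X2-PDPN to CCR7-PDPN in summed reads was 25.4 (exact 95% interval 14.01 to 51.5, counting error only). S100a14, an epithelial member, rose in X2-PDPN against X2 (log2 1.33, SE 0.23, edgeR adjusted p = 4.27e-06). Its ratio of X2-PDPN to CCR7-PDPN was 9.61 (5.84 to 16.9). S100a7a, the mouse psoriasin relative, had a log2 change of -0.19 in X2-PDPN against X2 (adjusted p = 0.491) and fell by 1.50 in CCR7 against X2.

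Of 23 direct partners and targets listed, 18 were tested. In X2-PDPN against X2, 8 rose and 7 fell, with a median of 0.02 on the log2 scale, beside 56.8% of all genes called. In CCR7-PDPN against X2-PDPN 6 rose and 8 fell, with a median of -0.05, beside 63.2% of all genes called. In CCR7 against X2, 6 rose and 5 fell, beside 49.3% of all genes called. In CCR7-PDPN against CCR7, 5 rose and 5 fell, beside 41.6% of all genes called.
Anxa2, which forms a heterotetramer with S100A10 at the membrane, rose in CCR7 against X2, where S100a10 fell. It averaged 569.8 ± 13.7 TPM in X2 and 681 ± 13.99 in CCR7 (log2 0.25, SE 0.03, edgeR adjusted p = 1.82e-07). Both genes rose in X2-PDPN against X2 (Anxa2 log2 0.22, edgeR adjusted p = 2.92e-10), and in CCR7-PDPN against X2-PDPN Anxa2 rose by 0.22 while S100a10 fell by 0.37 on the log2 scale. Ahnak, the giant scaffold bound by that complex, had 113 ± 15.8 TPM in X2 of batch 2, rose to 182 ± 14.8 TPM with the PDPN sort and stood at 104 ± 6.80 TPM when Ccr7 was also present (edgeR adjusted p = 0.000217 and 6.81e-05).
Anxa1, the S100A11 partner, fell by 0.24 in CCR7 against X2, rose by 0.10 in CCR7-PDPN against CCR7, rose by 0.20 in X2-PDPN against X2 and fell by 0.33 in CCR7-PDPN against X2-PDPN, and all of these changes passed the test. Anxa11 and Anxa6, which bind S100A6, went opposite ways. Anxa11 fell from 67.5 ± 2.54 to 43.8 ± 2.00 TPM in CCR7 against X2 (log2 -0.63, SE 0.04), and Anxa6 rose from 21.7 ± 0.559 to 44.1 ± 2.14 (log2 1.02, SE 0.05, edgeR adjusted p = 1.87e-13), the one partner past the fold threshold there.
Myh9, the heavy chain of myosin IIA that S100A4 binds, rose by 0.23 in X2-PDPN against X2 and fell by 0.32 in CCR7-PDPN against X2-PDPN (edgeR adjusted p = 4.81e-10 and 3.11e-14). In batch 1 its log2 changes were within 0.10 of 0 and did not pass. Cacybp, bound by S100A6, rose by 0.13 in CCR7 against X2 and had a log2 change of -0.13 in X2-PDPN against X2, both passing. Hltf, a chromatin remodeller, had log2 changes between -0.18 and 0.00. Dlc1, bound by S100A10, fell in CCR7-PDPN against X2-PDPN (log2 -1.07, SE 0.09, edgeR adjusted p = 7.01e-14), with 102 to 131 against 251 to 315 reads.

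The S100A10 and annexin A2 complex is a docking site for plasminogen and its activators. Of 10 genes of plasminogen activation 6 were tested. In CCR7 against X2 5 fell, beside 49.3% of all genes called in either direction. Plat, the tissue activator, averaged 16.8 ± 0.766 TPM in X2 and 5.13 ± 0.271 in CCR7 (log2 -1.71, SE 0.07, edgeR adjusted p = 2.03e-14), and 9.67 ± 0.906 in X2-PDPN against 2.46 ± 0.271 in CCR7-PDPN (log2 -1.95, SE 0.08). Plau, the urokinase gene, fell by 1.22 on the log2 scale in CCR7 against X2. Plaur, the urokinase receptor, changed little, with log2 values between -0.09 and 0.22. In X2-PDPN against X2, where all S100 members rose, Plat fell by 0.81 and Plau by 0.23.
Of 9 receptors listed 5 were tested, with no call past the fold threshold in any of the 6 comparisons. Of all genes, 3.27% to 9.63% passed it. Of 12 annexins 9 were tested. In X2-PDPN against X2 6 rose and 1 fell, beside 56.8% of all genes called. In CCR7-PDPN against X2-PDPN 4 rose and 5 fell, beside 63.2% of all genes called.
Other EF-hand calcium sensors served as a comparison within the same protein fold. Of 27 listed 18 were tested. In X2-PDPN against X2 6 rose and 5 fell (median -0.031 on the log2 scale), beside 56.8% of all genes called. There 8 of 8 S100 members rose, and the call of S100a16 among them was favoured by the filter on low counts. Among the other S100 genes tested, S100a8 and S100a14 rose and S100a7a was not called. In CCR7-PDPN against CCR7 13 rose and none fell, beside 41.6% of all genes called. Rcn3, a chaperone of the secretory pathway, rose by 2.63 in X2-PDPN against X2 and fell by 4.72 in CCR7-PDPN against X2-PDPN (SE 0.11 and 0.15), with 281 to 404 reads in X2-PDPN and 9 to 15 in CCR7-PDPN. Hpcal1 fell by 1.06 in CCR7-PDPN against X2-PDPN. Of the endothelial markers, Pecam1 (log2 1.14) and Cdh5 (log2 -1.48) passed in X2-PDPN against X2 at 1 to 18 reads per library, and Cdh5 also in CCR7-PDPN against X2-PDPN (log2 2.44).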

How the data were processed

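RNA was measured in 24 libraries (TruSeq Stranded mRNA, NextSeq 550, single-end 75 bases). The authors aligned the reads to GRCm38 (mm10) and deposited whole-number counts per gene. The batch 1 file lists 55471 genes with lengths and that of batch 2 lists 13915, by a filter not given in the sources used here.

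Counts were tested per batch with edgeR 4.0.16 (limma 3.58.1, R 4.3.3), using the robust quasi-likelihood test, TMM scaling, filterByExpr and Benjamini-Hochberg adjustment over 13261 genes (batch 1) or 13314 (batch 2). The difference between PDPN contrasts was fitted over all 24 libraries and 13690 genes. A gene was called at an adjusted p under 0.05, and separately with an absolute log2 fold change above 1. TPM was computed over the genes of both tables from the table's lengths. Standard errors are the absolute log2 change over the square root of F. The scripts were tested on simulated data. DESeq2 1.42.0, other scalings and filters, 1 library left out and a replicate block were tried as alternatives. Replicate numbers gave no pairing.

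The members and gene lists were chosen with earlier results of these data known. Named genes are the members, the other S100 genes, the listed genes called with the fold threshold, the textbook partners and plasminogen genes, the 3 genes most like each of the 2 members of widest span, and neighbours past the fold threshold. Col1a1 and the markers come from the same lists. One listed gene of plasminogen activation is not reported here.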

Additional observations from a re-analysis of the deposited data

Results flagged for a closer look

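Of 48 groups of 4 libraries examined for a library apart from the rest (Dixon's ratio above its 95% critical value, which chance gives in about 1 in 20 groups), 3 were found. S100a4 in X2 of batch 2 had a highest library of 43.1 TPM (ratio 0.900), S100a10 in CCR7-PDPN of batch 2 a lowest library of 1047 TPM (0.969), and S100a16 in X2-PDPN a lowest library of 1.19 TPM (0.848). None changed the direction of a called difference when left out.

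The change between PDPN-high cells and their counterpart differed between the cells with and without Ccr7 for 6 members, by edgeR's test of the difference over 24 libraries. The log2 differences were -1.05 for S100a3, -1.34 for S100a4, -0.23 for S100a10, 0.29 for S100a11, -0.46 for S100a13 and -2.49 for S100a16. The call of S100a16 was favoured, since it passed the filter on low counts only through X2-PDPN. The change with Ccr7 was measured in batch 1 and that without Ccr7 in batch 2, and CCR7-PDPN against X2, present in both, gave log2 changes of 0.86 and 0.84 for S100a4.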

How the results depend on the processing

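The 53 log2 changes of members were recomputed in 850 alternatives, of which 814 kept direction and side of the threshold, 16 lost their call, 5 gained one and 15 changed sign. Without the filter on low counts, and with DESeq2, the members past the fold threshold became 1 and 1 in place of 0 in CCR7 against X2 and in CCR7-PDPN against X2 of batch 1, S100a16 being the gene that enters. Without the filter, 1891 genes in place of 1253 passed it in CCR7-PDPN against X2 of batch 1. With only the groups compared, 0 members in place of 1 passed it in CCR7-PDPN against X2 of batch 2, since S100a16 was then filtered. The changes of sign were in results that were not called. S100a6 in CCR7-PDPN against CCR7 was 0.00016 without the filter and -0.047 to 0.028 without 1 library, S100a13 there -0.021 to 0.095, S100a11 in CCR7-PDPN against X2 -0.041 to 0.042 in batch 1 and -0.073 to 0.0024 in batch 2, and S100a1 in the difference between PDPN contrasts -0.085 to 0.024; the cause was not tested. Without 1 library the members called ranged from 4 to 6 in CCR7 against X2, 3 to 4 in CCR7-PDPN against CCR7, 6 to 7 in CCR7-PDPN against X2 of batch 2 and 5 to 7 for the difference between contrasts, and those past the fold threshold from 3 to 4 in CCR7-PDPN against X2-PDPN and 2 to 3 for the difference.

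The replicate numbers did not pair the libraries, since the correlations of deviations over 24 pairs ran from -0.120 to 0.106. With a replicate block the members called were 5, 4 and 4 in batch 1, 8, 8 and 7 in batch 2 and 6 for the difference, the counts found without it, and the genes called in CCR7 against X2 were 6356 in place of 6534.

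Levels in X2 of batch 1 depend on the unit and on the length used. As TMM-scaled RPKM, a change of unit with the same lengths, they were 37.8 for S100a1, 0.861 for S100a3, 9.57 for S100a4, 708 for S100a6, 299 for S100a10, 371 for S100a11, 20.6 for S100a13 and 0.187 for S100a16. With the longest transcript they were 107, 2.02, 30.9, 3406, 1460, 1024 and 56.8 TPM for S100a1, S100a3, S100a4, S100a6, S100a10, S100a11 and S100a13, so that S100a10 stood above S100a11. Depth limits S100a16 most, with 0 to 29 reads per library.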
